A study of Mus musculus with 28 samples.

Results

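Contacts of the Six2 promoter were read in mouse embryonic stem cells (ESC) by 4C-seq, a method in which chromatin is crosslinked, cut and religated, and every fragment joined to 1 chosen fragment, the viewpoint, is amplified and sequenced. The libraries described here are those labelled with the Six2 promoter as viewpoint, 2 of 28 samples in the series, and they were chosen by that label. One is from wild-type (WT) E14Tg2a ESC. The other is from E14Tg2a ESC labelled del36, with the boundary between the topologically associating domains of Six3 and Six2 deleted. The labels give both as ESC kept in 2i and LIF, whereas the growth protocol names medium with serum and LIF. The labels do not say whether del36 is 1 clone or whether both chromosomes carry the deletion. There is 1 library per genotype, so every difference is a difference between 2 libraries, no test was possible, and the intervals below cover counting error only. The comparison addresses whether the Six2 promoter gains contact with the Six3 side, where the poised enhancer PE Six3 lies, once the boundary is gone.

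Topologically associating domains are stretches of chromosome that contact themselves more than their neighbours, and their boundaries, often bound by CTCF and cohesin, limit contact between an enhancer and the genes of the next domain. Six3 encodes a homeobox transcription factor of the forebrain and eye, and Six2 one that maintains the progenitor cells of the kidney. Both genes are silent in ESC and carry Polycomb marks there, and poised enhancers such as PE Six3 are held by Polycomb near their target genes before those genes are induced.

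The viewpoint, taken as the fragment with most reads, was chr17:85689020-85689800 (mm10) in both libraries. It starts 0.766 kb upstream of the annotated start of Six2, which is transcribed away from it, toward Six3, and it lies inside the annotated span of the long noncoding RNA CJ186046Rik. The 250 bases upstream of the start of Six2 and of Six3 are shown with their cut sites, which limit what 4C-seq can resolve there. The Six2 bases shown lie between the start of Six2 and the viewpoint fragment, not inside it. Joining was thus measured from a fragment farther upstream than these bases. They were taken from RefSeq (GRCm38.p6, the assembly of mm10) and run 5′ to 3′ on the strand of the gene, with CATG, the site of the first enzyme, NlaIII, in capitals.
Six2 promoter, chr17:85688255-85688504, minus strand: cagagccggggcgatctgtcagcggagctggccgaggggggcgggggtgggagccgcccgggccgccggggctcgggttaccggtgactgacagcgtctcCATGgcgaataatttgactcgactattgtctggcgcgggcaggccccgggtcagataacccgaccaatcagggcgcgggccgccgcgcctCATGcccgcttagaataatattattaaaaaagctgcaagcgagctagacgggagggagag
Six3 promoter, chr17:85620584-85620833, plus strand: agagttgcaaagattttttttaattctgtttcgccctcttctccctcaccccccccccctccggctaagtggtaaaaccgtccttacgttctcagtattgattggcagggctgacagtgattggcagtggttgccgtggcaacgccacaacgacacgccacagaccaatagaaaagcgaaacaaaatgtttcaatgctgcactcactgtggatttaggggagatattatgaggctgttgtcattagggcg

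The Six2 promoter holds 2 CATG sites and 1 GATC, the site of the second enzyme, DpnII, and the Six3 promoter holds neither (both words read the same on either strand). Of 32851 RefSeq promoters of this length, 53.9% held CATG and 41.9% held GATC. The Six2 promoter had 26 CpG and 64.8% G+C, the Six3 promoter 10 CpG and 48.8% G+C, against a median of 6 CpG over all promoters. Of the fragment ends in both libraries that fell inside a RefSeq promoter, 251 of 251 lay directly next to a CATG, so the deposited fragments are NlaIII fragments on this assembly. The Six3 promoter shown above therefore lies whole within a single fragment, chr17:85620336-85621238, which had 107 reads in WT and 375 in del36.

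Values were deposited as RPM (reads adjusted for library size) for each fragment and were turned back into reads. The WT library had 6169568 reads and the del36 library 6056180, of which 83.9% and 83.6% lay on the viewpoint fragment itself. Local reads, those within 1 Mb of the viewpoint without the nearest 10 kb on each side, numbered 165248 in WT, on 736 fragments, and 238250 in del36, on 897. That is 2.68% and 3.93% of the library, so the del36 library carried more local signal at almost the same depth; the part of this in the results was not tested. Shares below are percentages of local reads with exact 95% binomial intervals, and log2 ratios are del36 over WT.

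**Figure D1:**
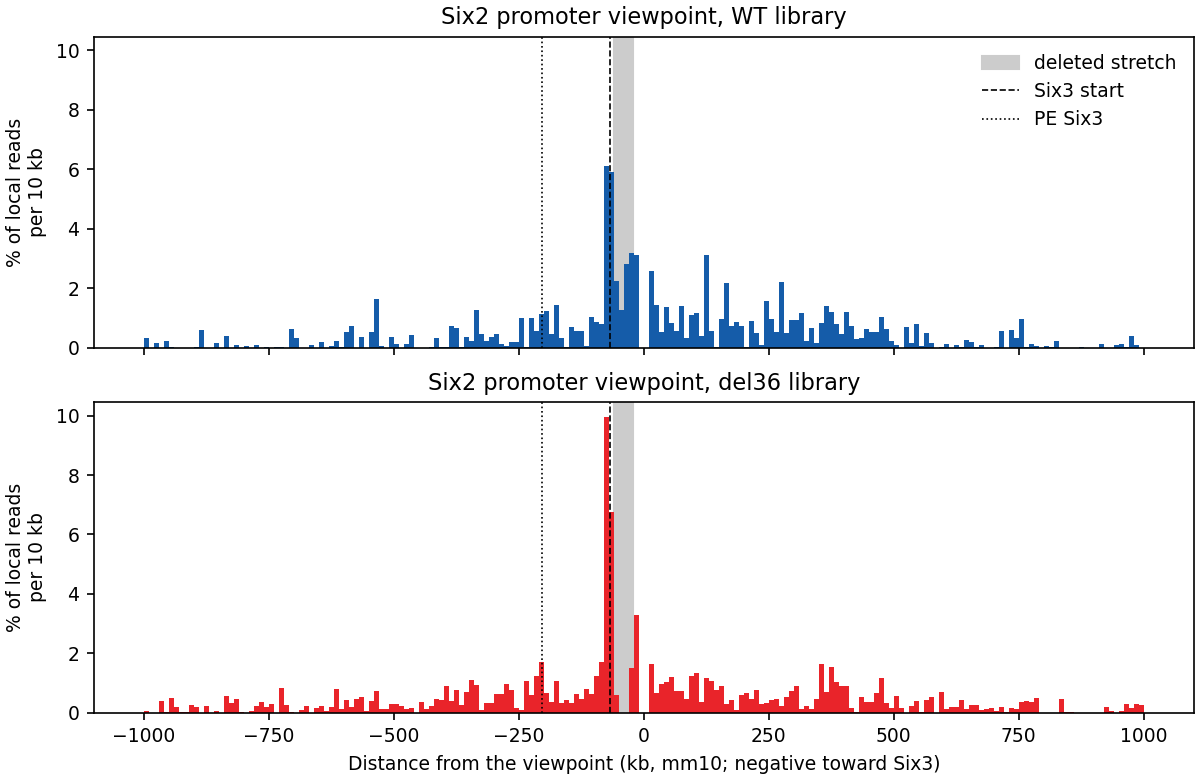
Share of local reads in 10-kb windows (y axis, percent) against distance from the Six2 promoter viewpoint (x axis, kb on mm10, negative toward Six3) in the WT (top) and del36 (bottom) libraries; grey marks the deleted stretch, and lines mark the Six3 start and PE Six3. Windows are counted outward from the viewpoint. In both libraries the tallest windows lie at Six3, just past the deleted stretch, and in del36 the middle of the stretch is empty or nearly so.

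Reads were spread very unevenly over fragments. In WT, 456 fragments had at least 10 reads, with a median of 211, and 280 had 1 to 9 reads, which together held 542 reads. In del36, 720 fragments had at least 10 reads, with a median of 220.5, and 177 had 1 to 9 reads, with 537 reads in all. Of the 280 thinly read WT fragments, 177 had at least 100 reads in del36, and of the 177 in del36, 51 had at least 100 in WT. Whether reads passed between the libraries was not tested. Reads of 1 fragment can be PCR copies of few ligations and are not independent contacts, so counts of fragments with at least 10 reads, called covered fragments below, are given beside the shares.

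The deleted stretch was placed with the other viewpoint of the same locus: it is the longest stretch without any read in the PE Six3 del36 library, chr17:85629635-85666796, 37.2 kb. The Six2 promoter viewpoint lies 22.6 kb from its near edge and 59.8 kb from its far edge. In WT this stretch held 13485 reads, 8.16% of the local reads (8.03% to 8.29%), on 27 covered fragments. In del36 it held 796 reads on 7 fragments, nearly all on the outermost ones, chr17:85629639-85629693 with 661 reads and chr17:85666700-85666737 with 125. Between those, 10 reads were left in del36 where WT had 13484. On the Six3 side, the covered del36 fragments run up to the edge, with 616, 139 and 661 reads on neighbouring fragments that had 0, 0 and 1 reads in WT. On the Six2 side, the fragments just outside had 422 and 1095 reads in del36 against 1 and 41 in WT. Between its outermost covered fragments the Six2 promoter del36 library thus leaves a gap of 37.0 kb, chr17:85629694-85666699.

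The Six2 promoter gave more of its signal to the Six3 side in del36. Beyond the deleted stretch lay 37.6% of WT local reads (37.4% to 37.9%) and 52.9% of del36 local reads (52.7% to 53.1%), a gain of 15.2 percentage points and a log2 ratio of 0.49 (0.48 to 0.50). The share of the deleted stretch went from 8.16% to 0.334%, a difference of -7.83 points, and that of the whole other side of the viewpoint from 49.7% to 42.1%, a difference of -7.67 points. Together these nearly equal the gain beyond the stretch. The short piece left between the viewpoint and the stretch stayed near its level, at 4.48% in WT (4.38% to 4.58%) and 4.74% in del36 (4.66% to 4.83%).

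Since shares must add up, the deposited RPM scale was read too. On that scale the zone beyond the stretch went from 10081 to 20794 RPM, 2.06 times as much, and the other side from 13318 to 16543 RPM, 1.24 times as much. The other side was therefore lower in del36 by share and higher by RPM. At the same mm10 distances on both sides, the ratio of the Six3 side to the other side was 0.876 in WT and 1.45 in del36. This ratio does not depend on the total, and its log2 change was 0.72.

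Covered fragments gave the same direction with a much wider interval. Beyond the stretch there were 167 covered fragments in WT, 36.6% of all covered local fragments (32.2% to 41.2%), and 338 in del36, 46.9% (43.2% to 50.7%). The count was 2.02 times as high in del36, against 1.41 times at matching distances opposite, where it went from 220 to 310. The log2 ratio of the shares of fragments was 0.36 (0.09 to 0.63), and the side-to-side change was 0.52 (0.16 to 0.89). The median covered fragment beyond the stretch held 210 reads in WT and 221.5 in del36. In the first 50 kb past the stretch, though, reads went from 24260 to 48853 on 42 and 59 covered fragments, so there the reads differed by more than the fragments did.

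**Figure D2:**
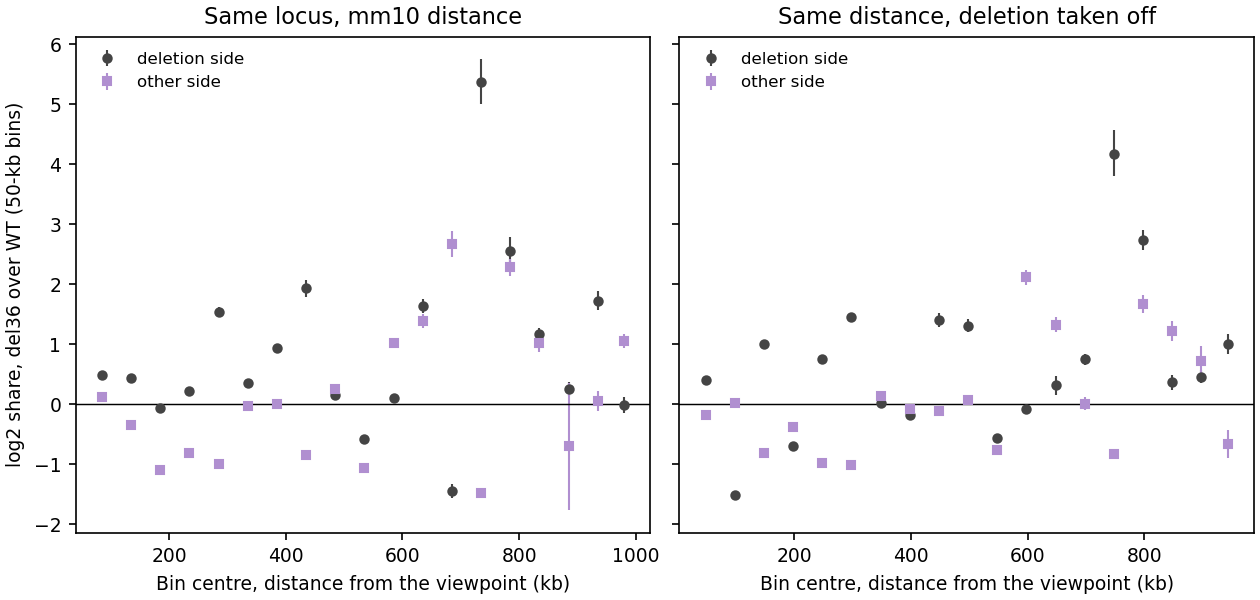
Log2 ratio of shares, del36 over WT, in 50-kb bins (y axis) against the distance of the bin centre from the viewpoint (x axis, kb), for the deletion side (circles) and the other side (squares); bars are 95% counting intervals. Left, the same loci at mm10 distance, where 15 of 19 bins on the deletion side are above 0 and 10 of 19 on the other side; right, the same distances with the length of the deletion taken off in del36, where these counts are 14 of 19 and 9 of 19.

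Along the Six3 side, the higher share was spread over the range rather than held by 1 place. Of 19 bins of 50 kb counted from the far edge of the stretch, 15 had a higher share in del36 and 4 a lower one, and all 19 had more covered fragments. On the other side at the same distances, 10 of 19 bins were higher, and 15 of 19 had more covered fragments. At least 2-fold higher were 7 bins on the Six3 side and 6 on the other side; over both sides together 34.2% of bins passed that fold upward and 10.5% downward, so the count on the Six3 side is near that of all bins. The median log2 ratio was 0.44 on the Six3 side (SD between bins 1.45) and 0.01 on the other side (SD 1.17).

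By distance from the far edge, the first 50 kb, where Six3 lies, went from 14.7% to 20.5% of local reads, a log2 ratio of 0.48. From 50 to 300 kb past the edge, which includes PE Six3 and the near part of Camkmt, the share went from 12.8% to 16.7% (0.38). From 300 to 600 kb it went from 7.02% to 9.68% (0.46), and from 600 kb to the limit of 1 Mb from 3.09% to 6.02% (0.96). The relative gain was thus largest in the farthest band, which rests on 20 covered fragments in WT and 49 in del36. The same bands on the other side had log2 ratios of 0.13, -0.64, 0.02 and 0.29. The band with the lowest of these, at the distances that match 50 to 300 kb past the edge, went from 22.0% to 14.1% of local reads.

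The deletion also shortens the path to everything beyond it by 37.2 kb, so the profiles were compared again at equal distance along the chromosome that remains. For this the length of the stretch was taken off each distance beyond it in del36, and WT was read over the same range, 22.6 to 962.8 kb, in which WT still has the stretch. On the Six3 side lay then 45.3% of the WT reads (45.1% to 45.6%) and, as before, 52.9% of those of del36. The log2 ratio was 0.22 (0.21 to 0.24), less than that of 0.49 for the same loci. The other side over these distances went from 46.6% to 39.1%, and the side-to-side change was 0.48 in place of 0.72. Taking the deletion off the distances therefore lowered both measures and left their sign as it was.

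At equal distance the bands on the Six3 side no longer had the same sign. The first 50 kb outward from 22.6 kb went from 15.6% in WT to 20.5% in del36 (log2 0.40), and the next 250 kb from 17.8% to 16.7% (-0.10). The 300 kb after that went from 9.09% to 9.68% (0.09), and the rest from 2.84% to 6.02% (1.08). Of 19 bins of 50 kb at equal distance, 14 were higher in del36, with a median log2 ratio of 0.46 (SD 1.26), and 7 were at least 2-fold higher and 1 lower. Over both sides together 28.9% of bins passed that fold upward and 5.26% downward.

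**Figure D3:**
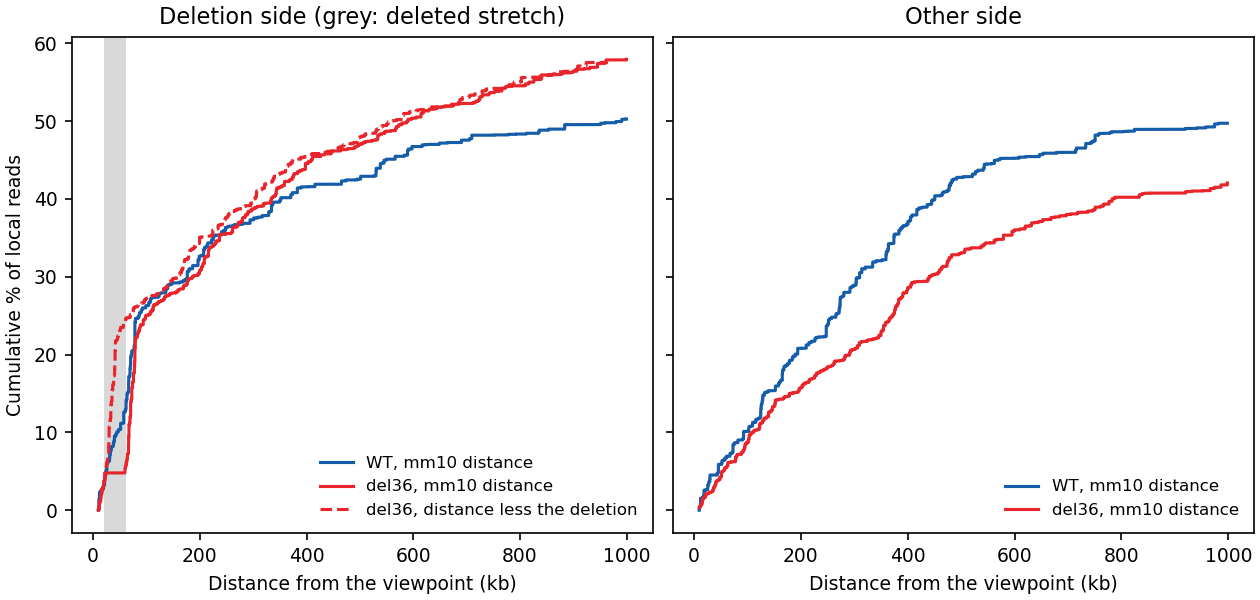
Cumulative share of local reads (y axis, percent) against distance from the viewpoint (x axis, kb) on the deletion side (left) and the other side (right) for WT and del36; the dashed line has the length of the deletion taken off the del36 distances. On the deletion side WT and del36 are within 2 percentage points of each other at 100, 200 and 300 kb on mm10 distances, at 26.3% and 25.1%, 32.7% and 30.8%, and 37.3% and 38.7%, and they part farther out, at 50.3% and 57.9% by 1 Mb.

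Summed outward from the viewpoint, the whole deletion side, stretch included, held 37.3% of WT local reads within 300 kb (37.1% to 37.6%) and 38.7% of del36 local reads (38.5% to 38.9%). At this distance the lower share of the stretch and the higher share beyond it nearly cancelled. Beyond 300 kb on that side lay 13.0% in WT and 19.2% in del36. On the other side the libraries parted earlier, with 28.9% within 300 kb in WT (28.7% to 29.1%) and 20.7% in del36 (20.5% to 20.8%). With the deletion taken off the distances, the del36 value within 300 kb on the deletion side was 39.9%. Of the reads beyond the stretch, 50% lay within 196.7 kb in WT and 205.6 kb in del36, or 168.5 kb with the deletion taken off.

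The tallest windows of the Six2 promoter profile lay at Six3, in WT as in del36. The first 50 kb past the stretch held 14.7% in WT, 3.56 times the 4.13% at the same distance on the other side. In del36 they held 20.5%, 4.54 times the other side at mm10 distance and 4.85 times at the distance that remains after the deletion. Among 10-kb windows beyond the stretch and on the other side, those with most reads in each library were the same neighbouring pair, chr17:85609635-85619634, with 6.48% in WT and 10.1% in del36, and chr17:85619635-85629634, with 5.53% and 6.86%. They cover Six3 and part of Six3os1, a long noncoding RNA gene that overlaps it. The third of these windows in del36 was next to them, at 85599635 to 85609634, with 1.72% against 0.792% in WT.

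At the annotated start of Six3 (85620834, RefSeq promoter table), 68.6 kb from the viewpoint and 31.4 kb away in del36, a window of 5 kb on each side held 10319 reads in WT, 6.24% (6.13% to 6.36%). In del36 it held 22519 reads, 9.45% (9.33% to 9.57%), a log2 ratio of 0.60 (0.56 to 0.63). The annotated gene span begins farther out, at 85613608, and a window there held 4.96% in WT and 8.26% in del36, a log2 ratio of 0.74. The promoter window was also set against the other side of the same library within 20 kb of the same distance, with the deletion taken off in del36. This reference ran from 48.6 to 88.6 kb in WT and from 11.4 to 51.4 kb in del36. The window was 7.97 times as dense as it in WT and 10.1 times in del36, a log2 change of 0.34. Within the WT library itself, signal on the other side was 1.75 times as dense at the distance Six3 has in del36 as at its distance in WT.

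**Figure D4:**
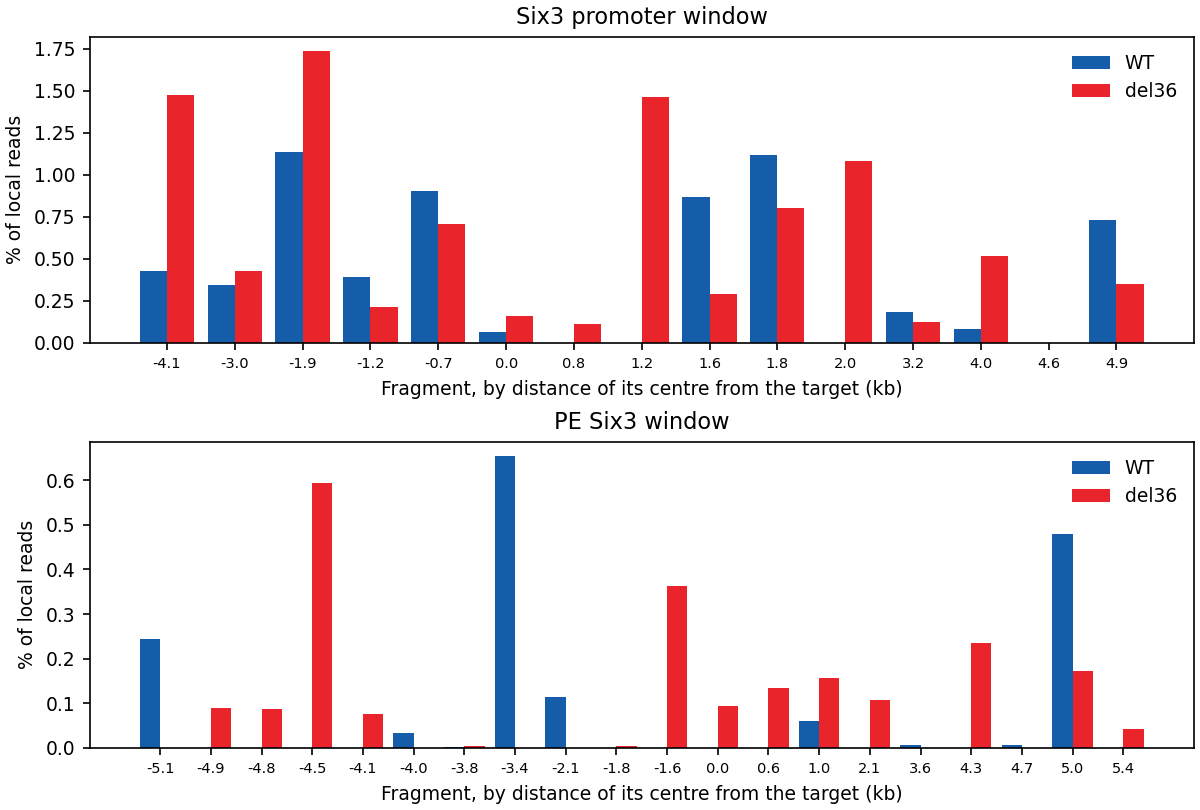
Share of local reads of each fragment (y axis, percent) in the windows at the Six3 promoter (top) and PE Six3 (bottom), ordered by the distance of the fragment centre from the target (x axis, kb), in WT and del36. All 11 covered WT fragments at the Six3 promoter are also covered in del36, against 2 of 8 at PE Six3 and 98 of 456 over all local fragments.

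Six3 was also where the libraries read the same fragments. Of 11 covered fragments in the promoter window in WT, 11 were covered in del36, which had 14. The fragment chr17:85618382-85619399, at the 5′ side of the start, had 1873 reads in WT and 4132 in del36, 1.13% and 1.73% of local reads. Farther upstream, chr17:85616114-85617317 went from 0.430% to 1.47%. Others had a lower share in del36: chr17:85622598-85622710 went from 1.12% to 0.801%, and the tallest fragment of both libraries, chr17:85610621-85611201 in Six3os1, from 2.91% to 1.78%, with 4816 and 4247 reads. The 3 fragments covered in del36 alone had 3482, 2575 and 273 reads against 3, 1 and 0 in WT, and the largest of them, chr17:85621747-85622289, held 1.46% of del36 local reads. The gain at the Six3 promoter was thus carried by some fragments of the window and not by all.

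The higher share of reads at Six3 was not seen in the share of covered fragments. They numbered 42 in WT and 59 in del36 over the first 50 kb past the stretch, 9.21% and 8.19% of all covered local fragments, a log2 ratio of -0.17 (-0.76 to 0.44). In the promoter window they numbered 11 and 14, a log2 ratio of -0.31 (-1.56 to 0.97). Of 15 fragments of this window read in either library, 13 were read in WT and 11 were covered there. The count thus had little room to rise, while covered local fragments went from 456 in WT to 720 in del36. For this window the share of covered fragments therefore cannot show whether contact rose.

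PE Six3, the poised enhancer, lies 204 kb from the Six2 promoter in WT and 167 kb away in del36. The window of 5 kb on each side of its viewpoint fragment, chr17:85485041-85485766, held 1.60% of WT local reads (1.54% to 1.66%), or 2643 reads. In del36 it held 5135 reads, 2.16% (2.10% to 2.21%). The log2 ratio was 0.43 (0.36 to 0.50). Relative to the other side within 20 kb of the same distance, the window was 2.45 times as dense in WT. In del36, with the deletion taken off, it was 3.72 times as dense, a log2 change of 0.60. With 10 kb on each side these were 2.01 and 2.14 times, a log2 change of 0.087. The shares of the wider window were 2.54% and 2.39%, with a log2 ratio of -0.085, so the direction of the share at PE Six3 depended on the width of the window. The 50-kb bin that holds it was at 4.56% in WT and 4.37% in del36.

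Fragment by fragment, the libraries mostly touched PE Six3 at different places, as they did over the whole range. WT had 8 covered fragments in the window and del36 13, or 1.75% and 1.81% of all covered local fragments. Of these 2 were the same, and 33.7% of the WT reads and 15.2% of the del36 reads there lay on those. That overlap, 25% of the WT fragments, is near the 21.5% over all local fragments and the 18.9% from 50 to 300 kb past the edge. In WT the tallest was chr17:85481999-85482079, with 1080 reads against 0 in del36, and in del36 chr17:85480652-85481136, with 1412 reads against 1 in WT. The fragment used as viewpoint in the PE Six3 libraries had 222 reads in del36 and 0 in WT. Its neighbour chr17:85485771-85486328 had 321 and 0, and the next, chr17:85486347-85486426, had 373 and 99. In the del36 library the enhancer fragment itself was thus covered, and in WT it was not. As the viewpoint of the PE Six3 libraries, this fragment had 5123332 reads in their WT library and 787717 in their del36 library. Whether any of the 222 reads passed over from those libraries was not tested. A count of 0 in WT allows up to 0.00182% of local reads, by counting error only, and most covered fragments at this distance were covered in 1 of the libraries and not in both.

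**Figure D5:**
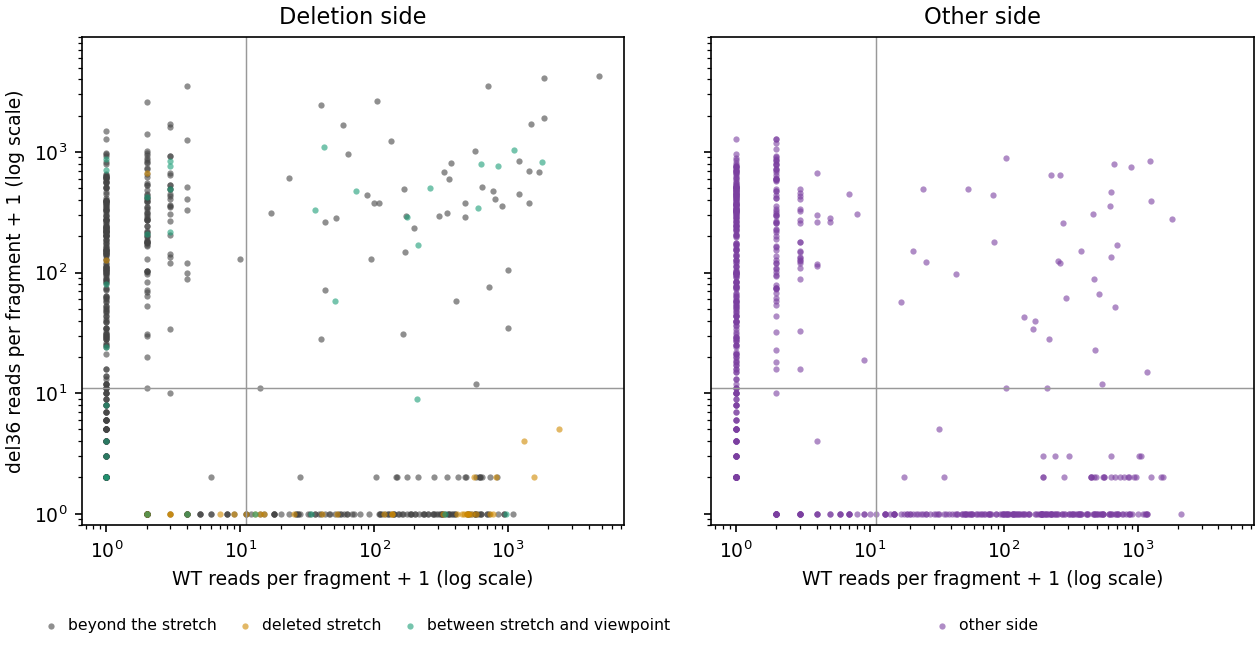
Reads per fragment plus 1 in WT (x axis, log scale) and del36 (y axis, log scale) for every local fragment on the deletion side (left, coloured by zone) and the other side (right); lines mark the limit of 10 reads for a covered fragment. Most fragments lie along an axis, covered in 1 library and unread or nearly so in the other, and 98 fragments are covered in both.

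Over the whole range, 98 fragments were covered in both libraries, 21.5% of the 456 in WT and 13.6% of the 720 in del36. On the Six3 side recurrence was highest near the viewpoint and at Six3 and lower farther out. Between the viewpoint and the stretch 12 of 17 WT fragments were covered again, against 3 of 10 at those distances on the other side. In the first 20 kb past the stretch, which hold Six3, 22 of 24 were, and in the first 50 kb 28 of 42. On the other side at the distance of those 50 kb, 2 of 19 were. From 50 to 300 kb past the edge it was 14 of 74, from 300 to 600 kb 5 of 31 and beyond that 1 of 20, and on the other side 14 of 102, 13 of 66 and 2 of 33. Of 245 covered WT fragments on the whole other side, 176 had no read at all in del36.

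The tallest fragments followed the same pattern. Of the 5 tallest WT fragments beyond the stretch, all lay within 20 kb of its edge, at or beside Six3, and each was covered in del36, with 678 to 4247 reads. On the other side, the tallest WT fragment, chr17:85937175-85937251, had 2116 reads in WT and 0 in del36, and the tallest del36 fragment, chr17:85829273-85829365, had 1286 reads and 0 in WT. Among the 5 tallest on that side, 3 of those in WT had at most 1 read in del36, and all 5 of those in del36 had at most 1 in WT.

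Single 10-kb windows carried correspondingly little. Of 158 windows with reads in both libraries, 36.1% were at least 2-fold higher in del36 and 23.4% at least 2-fold lower. On the Six3 side 36 of 76 were at least 2-fold higher and 13 lower, with a median log2 ratio of 0.66 (SD 3.88), and on the other side 21 of 82 were higher and 24 lower, with a median of -0.08 (SD 2.83). Across the 76 and 82 windows the log2 shares of the libraries correlated at Pearson's r of 0.25 on the Six3 side and 0.39 on the other; across 50-kb bins these were 0.67 over 19 bins and 0.87 over 19 bins. The points share the viewpoint and its fall with distance, so these values describe the profiles and are not tests.

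Protein-coding genes on the Six3 side were mostly higher in share, in step with the zone as a whole. Of 7 such genes beyond the stretch, 6 had a higher share over their span in del36 and 1 a lower one, with a median log2 ratio of 0.70. Six3 went from 6.28% to 10.2%, on 12 and 16 covered fragments, with all 12 of the WT fragments covered again. Camkmt, which encodes a calmodulin lysine methyltransferase and spans chr17:85090561-85458589, went from 11.4% (11.2% to 11.5%) to 16.0% (15.8% to 16.1%), a log2 ratio of 0.49. Its covered fragments went from 59 to 135, of which 8 were the same.

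The genes farther out rest on few fragments. Prepl, a serine peptidase gene, was at 0.257% and 0.953% on 3 and 7 covered fragments, and Slc3a1, a subunit of an amino acid transporter, at 0.192% and 0.612% on 2 and 10. Ppm1b, a protein phosphatase, was at 0.940% and 1.44%, and Lrpprc, a mitochondrial RNA-binding protein, at 0.396% and 1.59%, each on 3 and 12. Abcg8, a sterol transporter gene at the limit of the range, was at 0.329% and 0.0756% on 2 covered fragments in each library, with none in common. On the other side Srbd1 was at 11.8% in WT and 9.81% in del36, and Prkce, a protein kinase C gene, at 7.59% and 8.91%, so of the genes there 1 was lower and 1 higher. Six2 itself reaches into the deleted stretch by 4.06 kb as annotated, and its part within 10 kb of the viewpoint was left out. The rest of its span was at 6.14% in WT, reads on the stretch included, and 4.80% in del36.

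Between the genes of the Six3 side, the stretch from the PE Six3 window to Six3, 122.8 kb, went from 11.7% to 13.9% of local reads, a log2 ratio of 0.25. Its covered fragments went from 49 to 84, beside 456 to 720 over all local fragments. The piece between the end of Six3 and the far edge of the deletion, 3.44 kb, had a lower share in del36, from 1.58% (1.53% to 1.65%) to 1.17% (1.13% to 1.22%), a log2 ratio of -0.43, although in del36 it lies next to the retained Six2 side. Per 10 kb, the Six3 span held 4.99% of local reads in WT and 8.13% in del36, and the piece past its end 4.60% and 3.41%. This piece rests on 5 and 6 covered fragments and ends just before the edge fragment that went from 1 to 661 reads.

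Outside the range, reads of chromosome 17 farther than 1 Mb from the Six2 promoter were 1.06% of the WT library and 1.21% of the del36 library.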

How the data were processed

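The files used hold 1 value per NlaIII fragment. Per the file headers the deposited values are RPM, scaled to library depth; per the submitters' processing notes the authors mapped reads with HISAT2 to mm10, its version and any filter on reads not being stated there. In both Six2 promoter libraries 100% of values were whole multiples of the smallest, within 0.1, so reads were recovered by division. Depth was 6169568 and 6056180 reads. With 1 library per genotype a count test was not run and no p-value is given; members, windows and lists were chosen with earlier results of these data known.

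Distances run between fragment centres. Intervals are exact 95% (Clopper-Pearson, and its conditional form for log2 ratios); that of the side-to-side change adds the counting variances. They cover counting error only, as PCR reads carry no molecular identifiers. The rule for named genes takes all protein-coding genes within 1 Mb, PE Six3, the 5 tallest fragments of each side and library, and the highest 10-kb windows. Genes and promoters are from RefSeq (GRCm38.p6). The text names further fragments at the targets and edges after their values were seen. Samples were grouped by title. The PE Six3 libraries place the stretch and the enhancer; other libraries were not analysed here. Alternatives covered the total, the range, the part left out, tall and thin fragments, window size and the ends of the stretch. Functions were tested on simulated data; Python 3.11.15, pandas 2.3.3 and SciPy 1.17.1 were used.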

Additional observations from a re-analysis of the deposited data

How the results depend on the processing

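Values here are log2 ratios of del36 over WT, in the order share beyond the stretch, side-to-side change, share at matched distance, Six3 promoter window and PE Six3 window. They were 0.49, 0.72, 0.22, 0.60 and 0.43 as reported. On the deposited RPM without rescaling the values other than the side-to-side change were 1.04, 0.78, 1.15 and 0.98, with the share of chromosome 17 reads 0.59, 0.32, 0.69 and 0.53, and with the deleted stretch left out of the total 0.37, 0.10, 0.48 and 0.31. When the stretch was left out of the total, the WT reads at matched distance still included those of the stretch. The value of 0.10 is therefore not a ratio of shares of that total. With 25 kb left out around the viewpoint the share beyond was 0.48 and that at matched distance 0.21. Within 500 kb the values were 0.58, 0.88, 0.26, 0.69 and 0.52, and 9 of 9 bins were higher. With fragments capped at the 99th percentile the first 4 were 0.46, 0.66, 0.20 and 0.13. With each fragment counted once they were 0.21, 0.29, 0.074, -0.079 and -0.063, and with each covered fragment counted once, an alternative chosen after seeing the data, 0.36, 0.52, 0.16, -0.31 and 0.041. The tallest fragment of each zone or window was also taken off separately in each library, with the total unchanged. The values other than the Six3 window were then 0.56, 0.77, 0.27 and 0.72. With 10 kb on each side the Six3 window was at 0.48 and that of PE Six3 at -0.085, and 8 of 10 bins of 100 kb were higher. At the start of the Six3 gene span, also chosen later, the window was at 0.74, or 0.70 with 10 kb on each side.

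The share beyond the stretch, the side-to-side change and the share at matched distance kept their direction under every alternative run for them. The Six3 window turned its direction when fragments, or covered fragments, were counted once. By such counts it had little room to rise, as 13 of its 15 read fragments were read in WT and 11 covered there. The PE Six3 window turned its direction when fragments were counted once or the window was widened. The cause was not tested. The bin count was 14 to 17 of 19 under the other alternatives run with 50-kb bins and the 1-Mb range. The stretch placed from the Six2 promoter library and leaving out thinly read fragments moved no value outside its counting interval. No paired analysis was possible because each genotype has 1 library, and for the same reason no replicate could be left out. Covered fragments numbered 456 and 720, and intervals over them were wider than those over reads.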
